A study of Mus musculus with 64 samples.

Results

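The genes described here are 10 genes of extracellular matrix remodeling and crosslinking: the matrix metalloproteinase genes *Mmp2*, *Mmp3* and *Mmp14*, the protease inhibitor gene *Timp1*, the lysyl oxidase genes *Lox*, *Loxl1* and *Loxl2*, and the genes for fibronectin (*Fn1*), transforming growth factor beta 1 (*Tgfb1*) and SPARC (*Sparc*). They were listed by symbol for their link to fibrosis, with no measured value in the rule itself, but with earlier results of these data known. Counts of them set against the shares of all genes are thus descriptions and no independent test. They are 10 of the 52636 genes in the count table. All 10 passed the filter on low counts that kept 20249 genes for testing. The samples came from male WT and FANKO mice, as brown adipose tissue (BAT) or as white fat of the epididymal depot (eWAT), and were taken at 4 times of day given as Zeitgeber time (ZT, hours after lights on): ZT 6, ZT 10, ZT 18 and ZT 22. Each of the 16 groups held 4 samples, 64 in all. FANKO mice carry a floxed *Nampt* allele (Nampt tm1Jtree, with loxP sites around 1 exon) and Cre driven by the *Adiponectin* promoter, so *Nampt*, the gene for an enzyme that recycles nicotinamide into NAD+, is deleted in adipocytes and not in the other cells of the depot. WT mice were littermates without Cre. The labels give no age, and they do not say whether the samples of a group, or the depots with the same replicate number, came from separate animals, so p-values measure the spread between these samples.

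Collagen fibres are laid down outside the cell and gain strength when lysyl oxidases oxidise lysine residues, from which crosslinks form. Matrix metalloproteinases cut collagens and other matrix proteins, MMP14 sits in the cell membrane and activates MMP2, and TIMPs inhibit these proteases. TGF-beta 1 is the best known inducer of matrix genes in fibroblasts, fibronectin is a scaffold on which collagen assembles, and SPARC binds collagen and takes part in its deposition. In adipose tissue such genes are expressed mainly by fibroblasts, adipocyte progenitors, adipocytes and macrophages.

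Samples held between 6117343 and 30544847 counts (median 15826651). Counts were scaled by TMM, which takes most genes as unchanged, and levels are given as CPM, the share of a library scaled to a common total, after that scaling. By the calls given below, 33.1% of genes were higher and 33.9% lower in FANKO BAT, so that premise was not met there. In FANKO eWAT 27.6% were higher and 22.8% lower. Between the depots of WT mice 32.7% were higher and 41.1% lower in BAT, so the premise was not met in that comparison either. The median share of mitochondrial counts was 24.6% in WT and 14.7% in FANKO BAT, and 6.55% and 10.7% in eWAT. Small changes can turn with the scaling, as those of *Lox* and *Sparc* in BAT did. *Nampt* was lower in FANKO mice in BAT (log2 fold change -2.31, SE 0.07, adjusted p = 1.09e-36) and in eWAT (-0.50, SE 0.07, adjusted p = 4.67e-09), and all 16 FANKO BAT samples lay below all WT BAT samples. In eWAT the *Nampt* ranges overlapped, with 112 to 310 CPM in WT and 101 to 131 CPM in FANKO samples. Here and below, adjusted p-values come from the quasi-likelihood test of edgeR, adjusted by Benjamini-Hochberg over all 20249 genes, and a gene is called changed at a false discovery rate (FDR) below 0.01. The summed level of 8 brown adipocyte markers, *Ucp1* among them, had a median of 8048 CPM in WT BAT and 22.6 CPM in WT eWAT, and the sum of 7 mesothelial markers had medians of 9.29 and 436 CPM, as the tissue labels say. At ZT 18 the WT libraries of replicate 4 lay lowest in *Sparc* in both depots, and calls that changed without them are given both ways. That setting was chosen after the data had been seen. Leaving out the lowest WT values raises the WT mean of *Sparc* and narrows its spread. Larger or clearer *Sparc* differences without them are therefore no independent support.

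In FANKO BAT, 8 of the 10 genes were higher than in WT BAT and 2 were lower over all time points, where 33.1% of all genes tested were called higher and 33.9% lower. *Timp1* rose most, followed by *Mmp14*, *Mmp3*, *Tgfb1*, *Fn1*, *Mmp2* and *Loxl2*, and *Loxl1* rose least. *Lox* and *Sparc* fell. The median log2 fold change of the 10 genes was 1.60, against 9.69e-05 over all genes. In eWAT the picture differed: none of the 10 was higher, where 27.6% of all genes were, and 7 were lower, where 22.8% of all genes were. The median there was -0.80, against -0.02 over all genes. The tissue was measured in bulk, so for every gene here fewer cells of a type and less RNA per cell cannot be told apart.

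**Figure D1:**
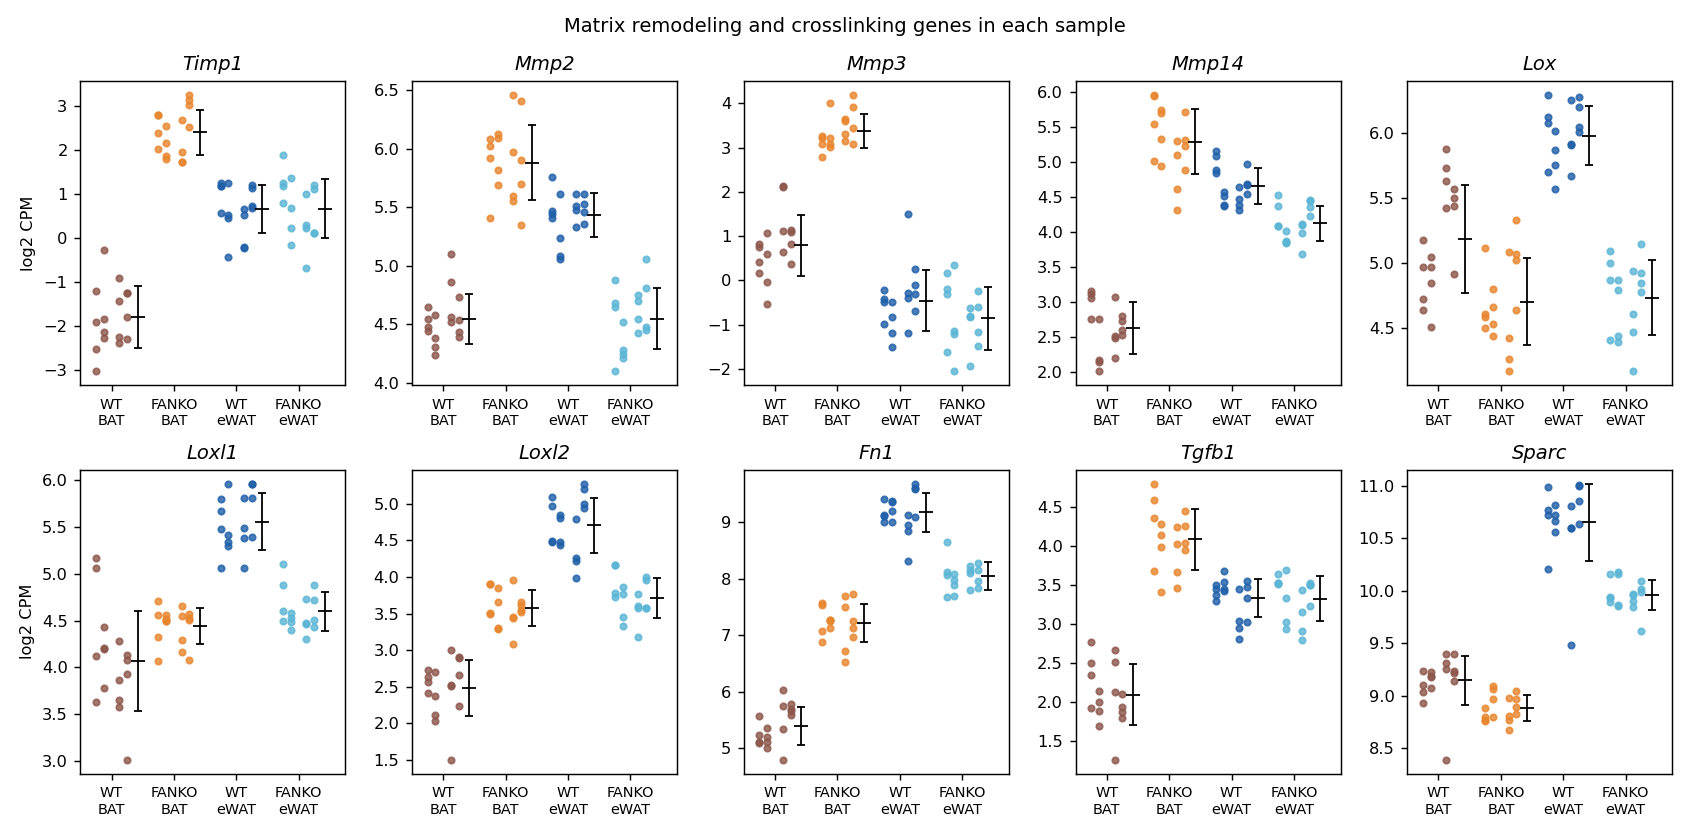
Level of each of the 10 genes in every sample, as log2 CPM with a prior count of 2 on the vertical axis, by genotype and depot. Points of a column are ordered from left to right by time point (ZT 6, ZT 10, ZT 18, ZT 22), and the black mark and bar give the mean and SD of 16 samples. *Timp1*, *Mmp2*, *Mmp3*, *Mmp14*, *Loxl2*, *Fn1* and *Tgfb1* show no overlap between WT and FANKO BAT. Of all genes, 12.5% lay fully higher in FANKO BAT.

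**Figure D2:**
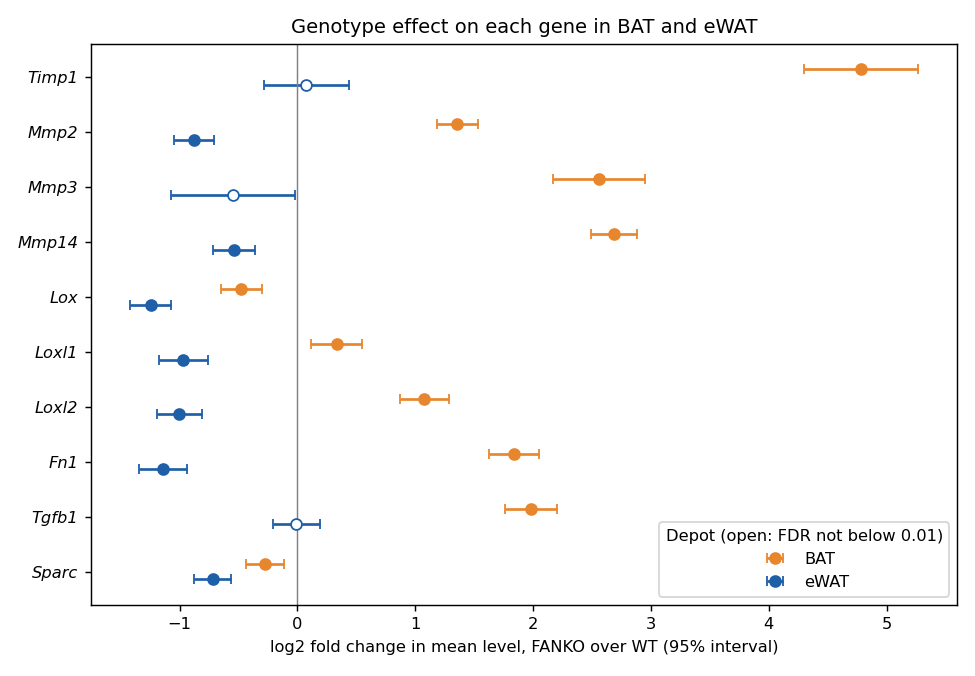
Log2 fold change of the mean level, FANKO over WT, for each of the 10 genes in BAT (orange) and eWAT (blue). Bars give an approximate 95% interval derived from the F statistic of the edgeR fit to all 64 samples. Open symbols mark *Timp1*, *Mmp3* and *Tgfb1* in eWAT, which were not called, and the BAT value lies to the right of the eWAT value for all 10 genes.

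*Mmp2* encodes gelatinase A, a secreted protease of denatured collagen and basement membrane (chromosome 8 of GRCm38, 92827291 to 92853420, forward strand). Its CPM in WT BAT ranged from 18.8 to 34.3 with a median of 23.0, and in FANKO BAT from 40.8 to 87.9 with a median of 60.2. All FANKO BAT samples lay above all WT BAT samples, a separation seen for 12.5% of all genes in that direction. The fold change was 2.56 (log2 1.36, SE 0.09, adjusted p = 3.65e-21). In eWAT the order was opposite: WT samples ranged from 33.3 to 53.9 CPM with a median of 44.0 and FANKO samples from 17.0 to 33.1 with a median of 23.1. Again no sample overlapped, which held for 1.33% of all genes in the direction of lower FANKO values. The log2 fold change was -0.88 (SE 0.09, adjusted p = 3.47e-13), so WT eWAT was 1.84 times as high.

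*Mmp14*, the gene for the membrane-bound protease MT1-MMP (chromosome 14, 54431612 to 54445364, forward strand), had 3.91 to 8.81 CPM in WT BAT with a median of 6.22. In FANKO BAT it had 19.8 to 62.3 CPM with a median of 39.5, so the genotypes were fully apart. The fold change was 6.44 (log2 2.69, SE 0.10, adjusted p = 3.35e-32). In eWAT the WT samples had 19.8 to 35.7 CPM, median 24.3, and the FANKO samples 12.8 to 23.0, median 17.0. These ranges overlapped, and the log2 fold change was -0.54 (SE 0.09, adjusted p = 1.01e-06).

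*Mmp3* encodes stromelysin 1, a secreted protease with many matrix substrates (chromosome 9, 7445822 to 7455975, forward strand). It was sparse outside FANKO BAT. WT BAT samples had 0.565 to 4.27 CPM with a median of 1.60, and FANKO BAT samples 6.82 to 18.1 with a median of 9.33. All FANKO BAT samples were above all WT BAT samples, and the fold change was 5.90 (log2 2.56, SE 0.20, adjusted p = 7.81e-18). In eWAT, where single libraries held as few as 2 reads, WT samples had 0.230 to 2.70 CPM and FANKO samples 0.119 to 1.16. The log2 difference was -0.55 (SE 0.27, adjusted p = 0.0725), and without the WT libraries of replicate 4 at ZT 18, of which the eWAT library held the highest value, it was -0.26 (adjusted p = 0.35).

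*Timp1* encodes a secreted inhibitor of most matrix metalloproteinases (chromosome X, 20870166 to 20874735, forward strand, inside the span of *Syn1* on the opposite strand with no shared exon). In the 16 WT BAT libraries it had 37 reads in all, between 0 and 6 per library, and in the 16 FANKO BAT libraries 1464 reads, between 30 and 201. The WT BAT samples thus had 0 to 0.706 CPM with a median of 0.149, and the FANKO BAT samples 3.17 to 9.42 with a median of 5.38. The ratio of the pooled rates was 29.1, with an exact 95% interval of 21 to 41.5 that covers counting error only. The fitted log2 fold change was 4.78 (SE 0.25, adjusted p = 1.18e-25). In eWAT the values of both genotypes covered much the same range, 0.615 to 2.26 CPM in WT samples and 0.505 to 3.55 in FANKO samples, with medians of 1.47 and 1.55. The log2 difference there was 0.08 (95% interval -0.28 to 0.43, adjusted p = 0.74).

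The set of RefSeq promoter sequences used here had an entry for 5 of the 10 genes (*Timp1*, *Mmp3*, *Mmp14*, *Tgfb1* and *Sparc*). Those of the 3 genes with the largest increases in BAT are shown. Each run holds the 250 bases before the RefSeq transcript start on the forward strand of GRCm38.p6. Capitals mark matches, on either strand, to an AP-1 site (TGANTCA) or a TATA box (TATAAA). The windows are chr9:7445572-7445821 for *Mmp3*, chrX:20869916-20870165 for *Timp1* and chr14:54431348-54431597 for *Mmp14*.
Mmp3: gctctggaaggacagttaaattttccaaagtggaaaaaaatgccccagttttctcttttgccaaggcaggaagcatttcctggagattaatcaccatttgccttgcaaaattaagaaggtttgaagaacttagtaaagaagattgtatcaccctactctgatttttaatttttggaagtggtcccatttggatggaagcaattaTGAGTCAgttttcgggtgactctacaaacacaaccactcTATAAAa
Timp1: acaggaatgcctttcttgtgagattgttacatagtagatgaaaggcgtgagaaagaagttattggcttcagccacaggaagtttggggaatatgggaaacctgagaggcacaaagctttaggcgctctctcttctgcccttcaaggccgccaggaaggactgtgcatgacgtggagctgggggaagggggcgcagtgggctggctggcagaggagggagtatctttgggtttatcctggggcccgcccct
Mmp14: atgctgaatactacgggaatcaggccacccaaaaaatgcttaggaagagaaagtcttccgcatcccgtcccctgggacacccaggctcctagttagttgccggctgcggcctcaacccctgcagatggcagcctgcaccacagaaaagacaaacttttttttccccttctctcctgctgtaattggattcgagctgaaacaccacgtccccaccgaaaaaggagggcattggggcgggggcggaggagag

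The *Mmp3* window held 1 match to each motif, 46 bases (AP-1) and 7 bases (TATA) before the start. Neither string was found in the windows of the other 4 genes with an entry, and an E-box (CACGTG), the string bound by the clock factors, was found in none of the 5. Of all 32851 promoters in the table, 6.75% held the AP-1 string, 12.4% the TATA string and 6.02% the E-box in the same window. A match is a description of the letters, and the factors were not measured.

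Of the 3 lysyl oxidase genes among the 10, *Loxl2* was the one whose samples lay fully higher in FANKO BAT (chromosome 14, 69609068 to 69695834, forward strand). WT BAT samples had 2.71 to 7.92 CPM with a median of 5.71, and FANKO BAT samples 8.37 to 15.5 with a median of 11.4. The samples did not overlap, and the fold change was 2.11 (log2 1.07, SE 0.11, adjusted p = 1.01e-13). In eWAT *Loxl2* fell from a median of 27.7 CPM in WT mice (15.8 to 38.6) to 13.3 in FANKO mice (8.91 to 17.7), with a 95% interval of the log2 fold change from -1.19 to -0.81 (adjusted p = 1.16e-13). The exons of *Loxl2* share 301 bp with the antisense gene *Gm27177*, and those of *Fn1* share 292 bp with *Apol7d*. The libraries were stranded, but the strand setting of the counting is not given in the sources used here, so reads of these stretches cannot be assigned with certainty.

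*Loxl1*, whose product acts mainly on elastin (chromosome 9, 58287738 to 58313186, reverse strand), differed in spread rather than in a clean shift in BAT. WT BAT samples covered 7.95 to 35.9 CPM with a median of 17.0 and enclosed all FANKO BAT samples, which had 16.7 to 26.1 CPM with a median of 22.7. The log2 fold change of 0.33 (SE 0.11, adjusted p = 0.00641) was small, and the call was lost without replicate 1, 3 or 4 of all groups (adjusted p of 0.0151, 0.0229 and 0.0193) and, narrowly, when mitochondrial genes were left out of the scaling (0.0103). In eWAT *Loxl1* fell from 33.2 to 62.2 CPM in WT mice to 19.6 to 34.2 in FANKO mice, a log2 fold change of -0.97 (SE 0.11, adjusted p = 1.06e-11).

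*Lox*, the gene for lysyl oxidase itself, lies on chromosome 18 and was lower in FANKO mice in both depots. In eWAT all FANKO samples (17.9 to 35.3 CPM, median 28.1) lay below all WT samples (47.4 to 78.3 CPM, median 64.4). WT eWAT was 2.37 times as high (log2 fold change -1.25, SE 0.09, adjusted p = 1.17e-18), the largest decrease of the 10 genes in that depot. In BAT the ranges overlapped, 22.6 to 58.5 CPM with a median of 34.4 in WT mice and 17.8 to 40.0 with a median of 24.5 in FANKO mice. The log2 fold change in BAT was -0.48 (SE 0.09, adjusted p = 3.37e-06), but 0.10 (adjusted p = 0.314) when libraries were scaled by their total alone, a scaling that moved the median of all genes to 0.58.

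*Fn1* (chromosome 1, 71585520 to 71653200, reverse strand) had 27.7 to 65.6 CPM in WT BAT with a median of 40.7, and 92.0 to 213 CPM in FANKO BAT with a median of 153. The genotypes did not overlap, and the fold change was 3.58 (log2 1.84, SE 0.11, adjusted p = 7.45e-23). In eWAT *Fn1* was far more abundant and fell, from 318 to 823 CPM in WT mice to 205 to 404 CPM in FANKO mice. WT eWAT was 2.21 times as high (log2 fold change -1.14, SE 0.11, adjusted p = 3.14e-14).

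*Tgfb1* (chromosome 7, 25687002 to 25705077, forward strand) had 2.27 to 6.72 CPM in WT BAT with a median of 4.04, and 10.6 to 27.8 CPM in FANKO BAT with a median of 16.9. No sample overlapped, and the fold change was 3.95 (log2 1.98, SE 0.11, adjusted p = 6.03e-24). In eWAT the WT median was 10.7 CPM and the FANKO median 10.9. The log2 difference was -0.01, with a 95% interval of -0.21 to 0.19 (adjusted p = 0.94).

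*Sparc* (chromosome 11, 55394500 to 55423183, reverse strand) was by far the most abundant of the 10 genes in every depot and genotype. In BAT it had 335 to 676 CPM in WT mice with a median of 589, and 408 to 545 in FANKO mice with a median of 464. The log2 fold change was -0.28 (SE 0.08, adjusted p = 0.00193). It reached -0.32 (adjusted p = 5.91e-07) without the WT libraries of replicate 4 at ZT 18, which removes the lowest WT value and so favours a larger decrease. The call was lost without replicate 1, 2 or 3 of all groups (adjusted p of 0.023, 0.0385 and 0.0518), with RLE scaling (0.0108) and with a stricter filter (0.0216), and the direction turned with library size scaling (0.33, adjusted p = 0.000191). In eWAT the decrease was larger, from a median of 1685 CPM (715 to 2054) to 988 (785 to 1155), with a log2 fold change of -0.72 (SE 0.08, adjusted p = 2.64e-11), and of -0.77 (adjusted p = 2.86e-18) without the WT libraries of replicate 4 at ZT 18.

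The genotype effect differed between the depots for all 10 genes, where 64.3% of all genes differed and 32.2% did so with the higher value in BAT. The difference, BAT minus eWAT, was positive for each gene and ran from 0.44 for *Sparc* (SE 0.11, adjusted p = 0.00051) to 4.71 for *Timp1* (SE 0.32, adjusted p = 3.55e-20) on the log2 scale. For *Sparc* it missed the threshold without replicate 2 of all groups (adjusted p = 0.0115) and was 0.45 (adjusted p = 8.51e-07) without the WT libraries of replicate 4 at ZT 18, with which *Mmp3* gave 3.11 and without which it gave 2.88 (adjusted p = 4.08e-13). *Lox* and *Sparc*, lower in FANKO mice in both depots, thus fell more in eWAT. *Mmp2*, *Mmp14*, *Loxl2* and *Fn1* were called higher in BAT and lower in eWAT. So was *Loxl1*, whose BAT call was lost in several other fits. The share of all genes with such opposite calls was not counted.

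In WT mice 9 of the 10 genes were lower in BAT than in eWAT, where 41.1% of all genes were, and *Mmp3* was higher, as were 32.7% of all genes. *Fn1* differed most, with 13.8 times as much in WT eWAT (log2 difference BAT minus eWAT -3.79, SE 0.12, adjusted p = 7.43e-37). *Timp1* followed with -2.98 (SE 0.27, adjusted p = 1.78e-15), and *Mmp2* and *Lox* differed least among the 9, with -0.89 and -0.79. *Mmp3* was 1.38 higher in BAT on the log2 scale (SE 0.23, adjusted p = 3.73e-07), but 0.64 (adjusted p = 0.0147) with library size scaling and 1.60 (adjusted p = 5.99e-10) without the WT libraries of replicate 4 at ZT 18. In FANKO mice the order of the depots was another one. *Timp1*, *Mmp2*, *Mmp3*, *Mmp14* and *Tgfb1* were higher in BAT, where 28.1% of all genes were, and *Fn1* and *Sparc* were lower, where 31.6% of all genes were. *Lox*, *Loxl1* and *Loxl2* were not called, with log2 differences of -0.02, -0.16 and -0.14 and adjusted p of 0.824, 0.188 and 0.197.

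Levels of different genes were compared per length of exon, as RPKM, which divides CPM by the exon length in kilobases. In WT BAT *Sparc* had 151 ± 21.3 RPKM (SD, n = 16), followed by *Lox* with 7.88 ± 2.28, *Mmp2* with 6.98 ± 1.13, *Loxl1* with 5.41 ± 2.23 and *Fn1* with 3.70 ± 0.890. *Mmp14*, *Loxl2* and *Mmp3* were near 1 RPKM (1.05 ± 0.267, 1.05 ± 0.253 and 1.01 ± 0.578), and *Tgfb1* (0.854 ± 0.238) and *Timp1* (0.226 ± 0.199) came last. Neighbours in this order from *Lox* to *Fn1* and from *Mmp14* to *Tgfb1* were within 1 SD of each other. In FANKO BAT *Sparc* had 125 ± 11.0 RPKM, *Mmp2* 17.9 ± 4.05 and *Fn1* 13.1 ± 2.99. The next 5 genes were *Mmp14* (6.89 ± 2.13), *Loxl1* (6.61 ± 0.854), *Timp1* (6.18 ± 2.30), *Mmp3* (5.90 ± 1.78) and *Lox* (5.55 ± 1.34). Their means lay close together against the SD between samples, and their order was not tested. *Timp1* was no longer the lowest. *Tgfb1* had 3.46 ± 0.935 and *Loxl2* 2.21 ± 0.379 RPKM.

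In WT eWAT *Sparc* (436 ± 88.6 RPKM) and *Fn1* (50.8 ± 11.3) led. *Loxl1* (14.5 ± 3.02), *Lox* (13.3 ± 2.05) and *Mmp2* (12.9 ± 1.64) followed within 1 SD of each other, and *Loxl2* (4.95 ± 1.26) and *Mmp14* (4.29 ± 0.818) came next. *Tgfb1* (2.00 ± 0.324), *Timp1* (1.75 ± 0.638) and *Mmp3* (0.393 ± 0.318) were lowest. In FANKO eWAT *Sparc* (264 ± 26.0), *Fn1* (22.9 ± 4.13), *Loxl1* (7.39 ± 1.16), *Mmp2* (7.02 ± 1.29) and *Lox* (5.63 ± 1.08) again led the list. *Mmp14* (2.96 ± 0.520), *Loxl2* (2.45 ± 0.469), *Tgfb1* (2.00 ± 0.375), *Timp1* (1.83 ± 0.892) and *Mmp3* (0.275 ± 0.168) followed.

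At each single time point *Timp1*, *Mmp2*, *Mmp3*, *Mmp14*, *Loxl2*, *Fn1* and *Tgfb1* were called higher in FANKO BAT, 7 of 10 genes, where 24.4%, 23.3%, 21.5% and 22.6% of all genes were called higher at the successive time points. The log2 fold change of *Mmp14* lay between 2.30 (ZT 18) and 3.18 (ZT 10), that of *Fn1* between 1.61 (ZT 22) and 2.06 (ZT 10), and that of *Loxl2* between 0.89 (ZT 22) and 1.22 (ZT 10). *Lox* was called lower at ZT 18 alone (log2 fold change -1.16, SE 0.18, adjusted p = 1.24e-07), where 22.5% of all genes were called lower. At the other 3 time points its values were -0.16, -0.24 and -0.35 with adjusted p of 0.453, 0.271 and 0.0881. *Loxl1* and *Sparc* were called at no single time point in the fit to all samples. Without the WT libraries of replicate 4 at ZT 18, *Sparc* was called lower at ZT 18 (-0.51, adjusted p = 0.000142) and ZT 22 (-0.32, adjusted p = 0.00937). *Loxl1* was called higher at ZT 22 with the stricter filter (0.70, adjusted p = 0.00763) and without replicate 2 of all groups (0.83, adjusted p = 0.0076), and at ZT 10, ZT 18 and ZT 22 with library size scaling. In eWAT *Mmp2*, *Lox*, *Loxl1*, *Loxl2* and *Fn1* were called lower at all 4 time points, *Sparc* at 3 and *Mmp14* at 2. From ZT 6 to ZT 22 this made 7, 7, 5 and 6 of the 10 genes, where 10.1%, 8.46%, 5.1% and 8.02% of all genes were called lower. Without replicate 2 of all groups, 3 were called lower at ZT 6 and 3 at ZT 18. *Sparc* narrowly missed the threshold at ZT 18 (-0.54, adjusted p = 0.0101), and was called there in 9 of the other fits, among them the one without the WT libraries of replicate 4 (-0.75, adjusted p = 1.4e-06). *Timp1*, *Mmp3* and *Tgfb1* were called at none, and the smallest adjusted p among them was 0.0142, for *Mmp3* at ZT 18 (-1.56). That value rested on WT replicate 4, with 2.70 CPM against 0.317 to 0.695 in the other WT samples, and without replicate 4 of all groups it was -0.58 (adjusted p = 0.502). With all samples *Mmp3* was called there with library size scaling (adjusted p = 0.00947), the stricter filter (0.00752), DESeq2 (0.00593) and the muscle and epididymis covariates (0.00963).

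Rhythm over the day was tested by fitting a 24 h wave (its cosine and sine terms jointly) to each gene. *Lox* was the 1 gene of the 10 called rhythmic in WT BAT (adjusted p = 0.000123), where 13.9% of all genes were called. Its CPM was 26.2, 36.0, 24.7 and 31.2 at ZT 6 and 31.1, 32.9, 22.6 and 28.7 at ZT 10, and rose to 53.1, 49.4, 42.7 and 58.5 at ZT 18. At ZT 22 it was 30.0, 47.3, 45.2 and 43.1. All ZT 18 samples thus lay above all daytime samples. This separation comes from the same values as the rhythm call, and its share among all genes was not counted. The largest difference between time point means was 0.82 on the log2 scale. The call was made in every alternative fit (adjusted p up to 0.00375, without replicate 3). In FANKO BAT the *Lox* CPM at ZT 18 was 17.8, 21.3, 33.7 and 19.1. Its rhythm was not called there (adjusted p = 0.183), and the direct test of a difference between the genotypes' rhythms gave an adjusted p of 0.0216 with edgeR, where 2.76% of all genes were called, and 0.0084 with DESeq2.

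*Mmp14* was called rhythmic in FANKO BAT (adjusted p = 0.00823), where 2.84% of all genes were. Its CPM was 62.3, 46.8, 32.4 and 61.4 at ZT 6, 30.8, 53.5, 52.1 and 40.1 at ZT 10, 19.8, 34.4, 24.3 and 39.3 at ZT 18 and 29.6, 37.6, 52.6 and 39.7 at ZT 22. The lowest values fell at ZT 18 and the highest at ZT 6, with overlap between all time points. The call was lost without replicate 1 (adjusted p = 0.325), 2 (0.0437) or 4 (0.048) of all groups and when each depot was fitted alone (0.0689). It was also lost with library size scaling, without a filter, with time point as a factor and with muscle and epididymis covariates (adjusted p of 0.0117, 0.0116, 0.0163 and 0.0109). A difference between the genotypes' rhythms of *Mmp14* in BAT was not called by the direct test (adjusted p = 0.392). *Loxl1* in WT BAT came close (adjusted p = 0.0145), with 17.3, 35.9, 12.3 and 33.2 CPM at ZT 6, a spread larger than the differences between time points. None of the 10 genes was called rhythmic in WT or FANKO eWAT in the edgeR fit to both depots, where 9.38% and 6.77% of all genes were, and the smallest adjusted p was 0.0326, for *Loxl2* in WT eWAT. When each depot was fitted alone, *Mmp14* was called in WT eWAT (adjusted p = 0.000699) and in FANKO eWAT (0.00226), and limma-voom called *Loxl2* in WT eWAT (0.00879). Of the 10 genes, none was called different in rhythm between genotypes in eWAT at the same FDR, where 1.15% of all genes were.

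**Figure D3:**
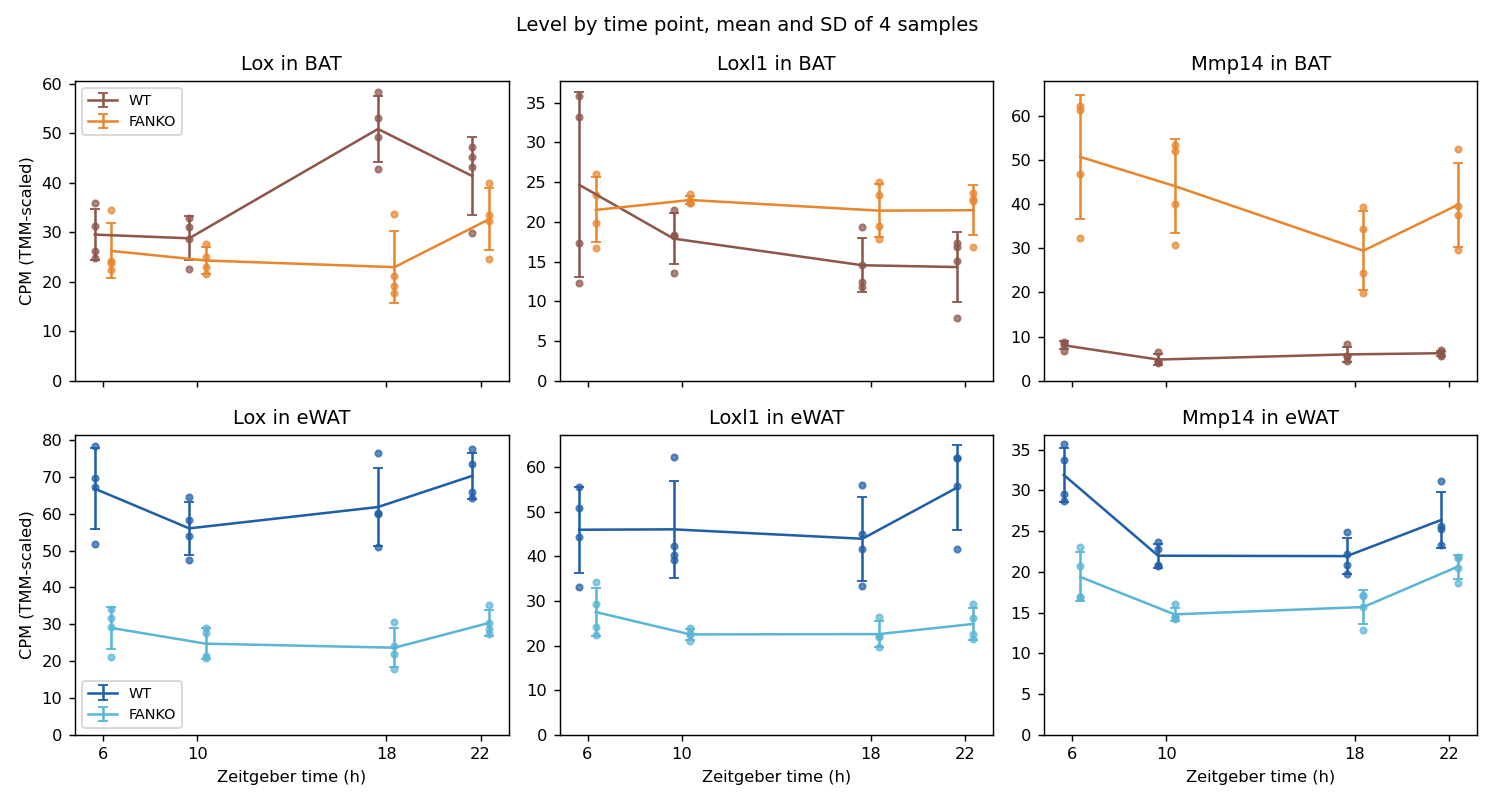
CPM of *Lox*, *Loxl1* and *Mmp14* by time point (horizontal axis, Zeitgeber time in hours) in BAT (top) and eWAT (bottom), with each sample as a point and the mean and SD of 4 samples as lines and bars. *Lox* in WT BAT peaks at ZT 18, with 42.7 to 58.5 CPM against 17.8 to 33.7 CPM in FANKO BAT. Mean *Mmp14* is higher in FANKO BAT than in WT BAT at every time point.

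Other matrix genes were counted in 8 lists of related genes that hold the 10 as well. Their counts stand against 33.1% of all genes higher and 33.9% lower in BAT, and 27.6% higher and 22.8% lower in eWAT, and some lie near those shares, such as the matrix metalloproteinase genes lower in eWAT and the TGF-beta pathway genes lower in BAT. Of 17 matrix metalloproteinase genes tested, 9 were higher and 1 lower in FANKO BAT, and 3 were higher and 6 lower in FANKO eWAT. *Mmp12*, the macrophage elastase gene, rose most in both depots, by 8.04 in BAT (SE 0.34, adjusted p = 4.58e-30) and 3.32 in eWAT (SE 0.22, adjusted p = 2.12e-19) on the log2 scale. Its WT BAT libraries, like those of *Spp1*, held few reads (single digits). The size of these fitted increases thus depends on the prior count of the edgeR fit, which is separate from that of log2 CPM. Of 7 protease inhibitor genes, 4 were higher and 2 lower in BAT and 5 lower in eWAT. *Timp4*, a relative of *Timp1*, was lower in FANKO mice in BAT (log2 fold change -1.60, SE 0.12, adjusted p = 2.34e-18) and in eWAT (-1.44, SE 0.11, adjusted p = 1.01e-16), unlike *Timp1*. Of 17 ADAMTS protease genes, 11 were higher and 2 lower in BAT, and none was higher and 12 were lower in eWAT. *Adamts14*, a procollagen protease gene, rose by 3.10 in BAT (SE 0.17, adjusted p = 5.33e-24), and *Adamts5* (-1.50) and *Adamts2* (-1.39) were lower in eWAT (SE 0.12 and 0.11, adjusted p of 7.15e-16 and 2.45e-17).

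Of 8 crosslinking enzyme genes, 5 were higher and 3 lower in BAT and 7 were lower in eWAT. *Pxdn*, the gene for the enzyme that crosslinks collagen IV, was lower in BAT (log2 fold change -1.47, SE 0.07, adjusted p = 3.61e-28). Of 17 collagen maturation genes, 13 were higher and 2 lower in BAT, and 3 were higher and 8 lower in eWAT. Of 18 genes of the TGF-beta pathway, 10 were higher and 5 lower in BAT, *Ltbp2* among the latter (-1.52, SE 0.09, adjusted p = 9.06e-24), and 3 were higher and 8 lower in eWAT. Of 18 genes of matricellular proteins and the fibronectin matrix, 11 were higher and 3 lower in BAT, and 2 were higher and 11 lower in eWAT. The 2 higher in eWAT were *Spp1*, the osteopontin gene (log2 fold change 1.92, SE 0.44, adjusted p = 0.000143), which rose by 7.30 in BAT (SE 0.37, adjusted p = 7.97e-26), and *Thbs1*, the thrombospondin 1 gene (0.90, SE 0.21, adjusted p = 0.000195). Of 12 elastic fibre genes, 9 were higher and none lower in BAT, and 1 was higher and 11 lower in eWAT. Their median log2 fold changes of 1.26 and -0.83 compare with 9.69e-05 and -0.02 over all genes.

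**Figure D4:**
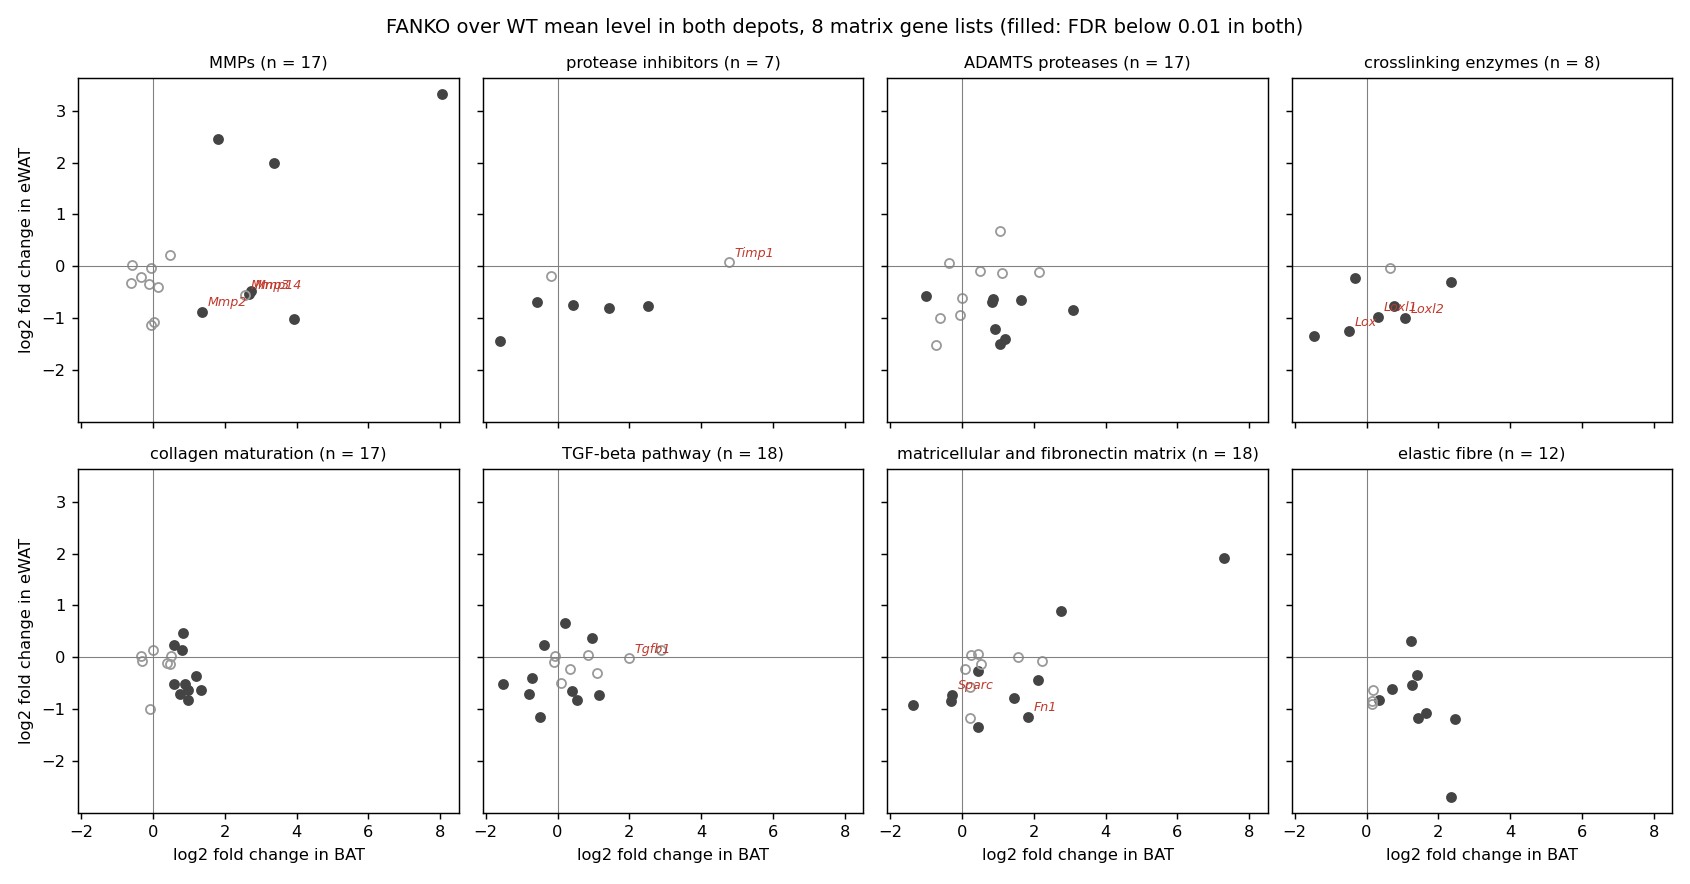
Log2 fold change of the mean level, FANKO over WT, in BAT (horizontal axis) and eWAT (vertical axis) for the tested genes of 8 lists of matrix genes. Filled points had an FDR below 0.01 in both depots, red names mark the 10 genes, and of 12 elastic fibre genes 9 were called higher in BAT and 11 lower in eWAT.

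Markers of the cell types in the depot moved as well, and the same shares of all genes apply to their counts. All 10 fibroblast and adipocyte progenitor markers (*Pdgfra*, *Dpt* and others) were called higher in FANKO BAT, and their summed level ranged from 317 to 476 CPM in WT BAT and from 760 to 1076 in FANKO BAT. In eWAT 9 of them were lower and 1 higher, with sums of 1515 to 1954 CPM in WT and 906 to 1279 in FANKO samples. Of 10 macrophage markers 9 were higher and 1 lower in FANKO BAT, with sums of 119 to 229 CPM in WT and 698 to 1703 in FANKO samples. In eWAT 5 were higher and 1 lower, with sums of 766 to 1109 and 724 to 1299 CPM. Their part in the changes of the 10 genes was not tested. Of 8 adipocyte markers 7 were lower in FANKO BAT (12035 to 15903 against 5516 to 9580 CPM), and of 8 brown adipocyte markers 4 were (5278 to 11386 against 1381 to 3767 CPM). In eWAT 2 adipocyte markers were higher and 4 lower, and 3 brown adipocyte markers were higher and 1 lower. All 7 mesothelial markers were lower in FANKO eWAT (194 to 549 against 184 to 279 CPM), whereas 1 was higher and 1 lower in BAT. In BAT 6 of 8 endothelial and 2 of 7 smooth muscle and pericyte markers were lower, and in eWAT 1 endothelial marker was lower and 5 smooth muscle markers were lower and 1 higher. Summed skeletal muscle markers varied from 0.634 to 484 CPM among WT BAT and from 3.30 to 431 among FANKO BAT samples, and epididymis markers from 0.732 to 29.7 among WT eWAT and from 0.570 to 58.4 among FANKO eWAT samples. With both sums as covariates the count of members called in each mean-level comparison was the same.

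Across the 16 group means of log2 CPM, which share libraries and scaling, the 10 genes fell into more than one pattern. *Timp1*, *Mmp14* and *Tgfb1* followed each other (Pearson's r of 0.940, 0.967 and 0.963 for the 3 pairs), as did *Loxl2* and *Fn1* (0.973), whereas *Timp1* and *Sparc* did not (-0.01). Among 13386 genes with a mean log2 CPM of at least 1, the 2 most like *Timp1* were *Plcg2* (0.989) and *Rhoh* (0.988). Those most like *Loxl2* were *Col5a1* (0.994) and *Fstl1* (0.989), and those most like *Mmp2* were *Gpm6b* (0.965) and *Pcolce* (0.960). The 2 nearest to *Lox*, *Gm26869* (0.907) and *Lrg1* (0.896), were less like it. These values describe 16 points dominated by depot and genotype.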

How the data were processed

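RNA from 64 samples, 4 in each of 16 groups of depot, genotype and time point, was sequenced by the authors from stranded, ribosomal RNA-depleted libraries. The authors aligned reads with STAR 2.5.3a to GRCm38.p5 and deposited whole-number counts per gene from featureCounts 1.5.3, without normalization (submitters' processing notes). Samples were grouped by the labels, and none was left out.

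The deposited counts were modelled in edgeR 4.0.16 under R 4.3.3: filterByExpr on the 16 groups (minimum count 10, minimum total 15), TMM scaling, and 1 quasi-likelihood fit of a mean, cosine and sine (24 h) for each depot and genotype. Time points were compared in a fit of the 16 group means. P-values were adjusted over 20249 genes, with an FDR of 0.01. Log2 CPM used a prior count of 2. RPKM used the summed exon length of each gene from GENCODE annotation on GRCm38, a later release than that of the authors, which also gave symbols and coordinates. The fit was tested on simulated counts. Alternatives used DESeq2 1.42.0, limma 3.58.1 (voom), other scalings, filters, designs and subsets of samples.

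All 10 genes are named. From the 8 matrix lists, the 3 largest increases and decreases per depot with a mean log2 CPM of at least 1 are named. Of the most similar genes, 2 are named for each of 4 members. Genes, lists and the named-gene rule were chosen with earlier results of these data known. Counts give relative levels, and depth limits precision for *Timp1* and *Mmp3* (0 to 201 and 2 to 272 reads per library).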

Additional observations from a re-analysis of the deposited data

Results flagged for a closer look

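The genotype effect of each of the 10 genes differed between the depots by the edgeR interaction test. The differences, BAT minus eWAT on the log2 scale, were 4.71 for *Timp1*, 2.23 for *Mmp2*, 3.11 for *Mmp3*, 3.22 for *Mmp14*, 0.77 for *Lox*, 1.30 for *Loxl1*, 2.08 for *Loxl2*, 2.98 for *Fn1*, 1.99 for *Tgfb1* and 0.44 for *Sparc*.

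In 160 sets of 4 samples (10 genes in 16 groups), 11 held a sample far from the other 3 by Dixon's test on log2 CPM (6.88%), where chance gives about 1 in 20. The low *Sparc* values of WT replicate 4 at ZT 18 fell in both depots, 8.39 in BAT (335 CPM, with 612 CPM in the nearest sample) and 9.48 in eWAT (715 and 1547 CPM). In BAT, *Fn1* was low in FANKO replicate 3 at ZT 10 (7.14) and *Loxl1* in FANKO replicate 2 at ZT 22 (4.08). In WT eWAT, *Fn1* was low in replicate 1 at ZT 22 (9.10), *Loxl1* high in replicate 2 at ZT 10 (5.96) and *Timp1* low in replicate 4 at ZT 6 (0.57). In FANKO eWAT, *Mmp14* was high in replicate 4 at ZT 10 (4.01), *Mmp3* low in replicate 3 at ZT 18 (-1.93), and *Tgfb1* low in replicate 1 at ZT 22 (3.23) and high in replicate 4 at ZT 6 (3.64).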

How the results depend on the processing

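Each value was recomputed under up to 17 other settings. Of 3120 recomputed values of single genes, 2987 kept their direction and their side of the threshold, 38 lost and 41 gained a call, and 54 turned sign. Only *Lox* and *Sparc* in BAT were called beforehand among those that turned, both with library size scaling. That scaling moved the median log2 fold change of all genes to 0.58 in BAT, -0.27 in eWAT, 0.88 for their difference and -0.86 between WT depots, and the share of calls that were higher from 49.4% to 84.9%, 54.8% to 21.8%, 50% to 89.7% and 44.3% to 13.7%, and RLE scaling moved the median of the depot difference to 0.15.

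Counts of the 10 genes that moved by over 1.5 times are given first. Those lower in FANKO BAT (2) were 1 with RLE scaling and with the stricter filter, 0 with library size scaling and 1 to 2 without a replicate. Those higher in WT BAT than WT eWAT (1) were 0 with library size scaling. Those rhythmic in WT BAT (1) were 2 at an FDR of 0.05, with library size scaling and with DESeq2, and 1 to 2 without a replicate. Those rhythmic in FANKO BAT (1) were 0 with library size scaling, no filter, separate fits per depot, time point as a factor or muscle and epididymis covariates, 2 with limma-voom and 0 to 1 without a replicate. Those rhythmic in WT eWAT (0) were 2 at an FDR of 0.05 and 1 with limma-voom or separate fits, and 1 was rhythmic in FANKO eWAT with separate fits. A rhythm that differed between genotypes in BAT (0) was called for 1 gene at an FDR of 0.05 and with DESeq2. Those lower at ZT 18 in FANKO BAT (1) were 1 to 2 without a replicate and 2 without the WT libraries of replicate 4 at ZT 18, a setting chosen after the data had been seen, and with it 1 was lower at ZT 22. Those lower in FANKO eWAT were 3 to 7 at ZT 6 and 3 to 5 at ZT 18 without a replicate, and 8 at ZT 18 at an FDR of 0.05. The eWAT rhythms were those of *Mmp14* (separate fits) and *Loxl2* (limma-voom). Smaller moves included 7 genes higher in FANKO BAT in place of 8 without replicate 1, 3 or 4 and without mitochondrial genes in the scaling, and 7 genes lower in FANKO eWAT at ZT 18 in place of 5 with library size scaling, the stricter filter and DESeq2. The causes were not tested.

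With library size scaling the log2 values that turned were, in BAT, *Lox* 0.10 over all times, 0.40 at ZT 6, 0.33 at ZT 10 and 0.27 at ZT 22, *Sparc* 0.33 over all times and 0.31, 0.40, 0.31 and 0.29 at ZT 6 to ZT 22, and *Loxl1* 0.41 at ZT 6. In eWAT they were *Timp1* -0.17 over all times, -0.26 at ZT 10 and -0.066 at ZT 18, *Tgfb1* -0.13 at ZT 6, -0.18 at ZT 18 and -0.13 at ZT 22, and *Mmp3* -0.0096 at ZT 6. *Lox* between FANKO depots turned to 0.051 with RLE scaling, 0.053 with library size scaling, 0.055 with the stricter filter and 0.052 with DESeq2. *Loxl1* in BAT at ZT 6 was 0.013 with limma-voom. *Timp1* in eWAT turned to -0.020 with the stricter filter and -0.034 with the covariates over all times. At ZT 10 it was -0.016 with RLE scaling, -0.071 with the stricter filter, -0.010 with DESeq2, -0.016 with limma-voom, -0.030 with the replicate block and -0.0095 with the covariates, and at ZT 18 -0.042 with the covariates and -0.030 without the WT replicate 4 libraries. *Tgfb1* in eWAT at ZT 18 was -0.046 with RLE scaling, -0.0060 without mitochondrial genes in the scaling, -0.025 without a filter, -0.080 with the stricter filter, -0.047 with DESeq2, -0.023 with separate fits and -0.029 without the WT replicate 4 libraries.

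Without a replicate, *Timp1* in eWAT ranged from -0.34 to 0.24 over all times, -0.68 to 0.55 at ZT 10, -0.40 to 0.35 at ZT 18 and -0.39 to 0.047 at ZT 22. *Tgfb1* in eWAT ranged from -0.11 to 0.054 over all times, -0.19 to 0.22 at ZT 18 and -0.084 to 0.14 at ZT 22. *Mmp3* in eWAT ranged from -0.042 to 0.55 at ZT 6 and -0.75 to 0.21 at ZT 10, *Loxl1* in BAT from -0.36 to 0.072 at ZT 6, and *Lox* between FANKO depots from -0.048 to 0.037.

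Same-numbered samples were not taken as pairs, since their correlations were not all above 0.1. Correlations of their deviations from the group means ran from -0.13 to 0.31 between depots and -0.13 to 0.22 between genotypes, with medians of 0.067 and 0.054 against -0.022 and -0.015 for other numbers. The best match had the same number for 18 and 15 of 32 samples, where 8 would by chance, and for 4 of 4 between the depots of WT mice at ZT 18, a hint of shared deviation from the data and not from the design. With the replicate block, 6 of the 10 genes were lower in FANKO eWAT at ZT 18 in place of 5, and no other count of the 10 genes moved. The block holds an effect of each replicate number over all groups, so it does not model a mouse shared by both depots. The comparisons between depots and the interaction test took all samples as separate, and their p-values would not allow for such sharing.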
